A study of Caenorhabditis elegans with 2 samples.

Results

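The 8 genes described here encode the worm DRM complex, which is named after DP, Rb and MuvB and is known as DREAM in mammals. They were lin-35, efl-1, dpl-1, lin-9, lin-37, lin-52, lin-53 and lin-54, 8 of the 19985 protein-coding genes annotated in Caenorhabditis elegans. The data were ChIP-seq peak lists of F22D6.2 carrying GFP and FLAG at its C-terminus, recovered from sonicated chromatin with an antibody against GFP. Whole young adult hermaphrodites of strain OP399, genotype unc-119(tm4063) III; wgIs399, were collected 67 h after synchronization as starved L1 larvae. The samples were 2 biological replicates of 1 group, and 1 control served both. All animals thus shared the same strain, transgene and stage, and no second genotype or untagged group was analysed here. In the annotation F22D6.2 has the symbol mstr-1. The sources used here do not give the promoter that drives the fusion or the number of animals per sample. Because the chromatin came from whole animals, binding in fewer cells and weaker binding in more cells cannot be told apart, and peak lists hold no expression values with which stage or tissue could be checked.

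The DRM complex joins the retinoblastoma-like protein LIN-35, the E2F and DP proteins EFL-1 and DPL-1, and the MuvB core of LIN-9, LIN-37, LIN-52, LIN-53 and LIN-54. In the worm it is best known as a repressor at promoters of cell cycle and germline genes, and several of its genes belong to the synthetic multivulva (synMuv) class B, which restrains vulval fate. E2F with DP recognises GC-rich elements, and LIN-54 recognises CHR elements, through which the complex contacts promoters.

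The genes were selected on membership of the complex, with their peaks already known, and every summit from 1000 bp upstream of the annotated 5′ end to the 3′ end was listed for each. The positions, signal values and ranks of these summits are therefore descriptions, and no test was made on them. The signal value is the authors' deposited value for each peak, its scale is unknown, and it is compared only within a list. Rank 1 is the highest signal value of a list. By their description, the pooled and replicate lists hold background regions as well as peaks. The pooled list of both replicates held 26002 regions with signal values of 15.1 to 6333 and a median of 22.2. The replicate 1 list held 25000 regions, with a median of 13.8, and the replicate 2 list held 23268, with a median of 14.2. The authors' thresholded list held 798 regions, which were exactly the 798 highest of the pooled list. Its lowest signal value was 80.3, and the next pooled region, at rank 799, had the same value when rounded. Numbers of reads were not in these files, so the depth behind each value was unknown. Positions are on ce11, counted from 1, and a negative distance lies upstream of the 5′ end.

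Of the 8 DRM genes, a thresholded summit was listed for lin-35, lin-9, lin-53 and lin-54, and for none of the other 4. All 4 summits lay in intergenic sequence within 500 bp of the 5′ end, which is called bound here. Over all protein-coding genes, 411 were bound, or 2.06%, and 690 had a thresholded summit anywhere in the gene window, or 3.45%. In the longer pooled list, which includes background regions, 8 of 8 DRM genes had a summit in the window, against 54.1% of all protein-coding genes. Within 500 bp of the 5′ end 8 of 8 had one, against 30.2%. The deposited −log10 q-value of the highest pooled summit was 2.44 in the 4 bound genes and efl-1, and 2.35 in lin-52. It was 0.829 in lin-37 and 0.143 in dpl-1, and the dpl-1 summit within 500 bp had 0.026. A listed summit is thus not by itself a peak. The genes were chosen with these summits known, so the counts carry no inference about the complex. The highest pooled signal value of each gene had a median of 100 over the 8 genes, and its rank had a median of 757. Above the lowest thresholded signal value, 80.3, the lowest member was lin-35, with a signal value of 137 at rank 241. Below 80.3 the highest member was efl-1, with 63.5 at rank 1273. No member lay between them.

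**Figure D1:**
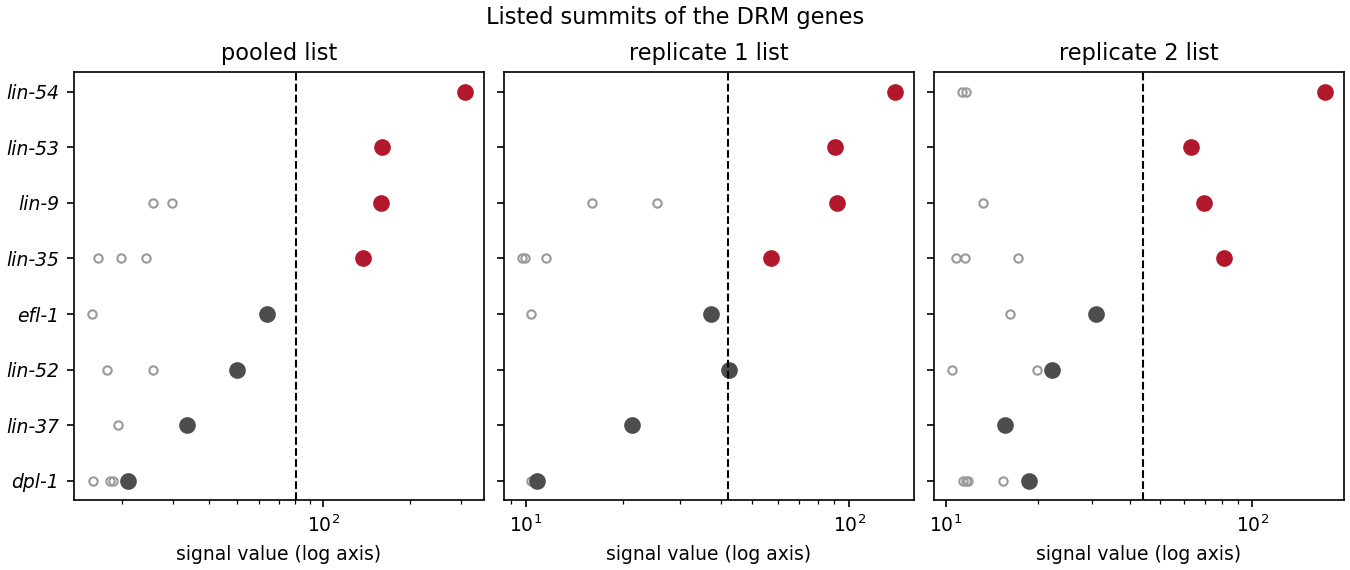
Signal values of all listed summits of the 8 DRM genes in the pooled, replicate 1 and replicate 2 lists, on log axes. Large dots are the highest summit of each gene, red where the gene had a thresholded summit, small open circles are its other summits, and the dashed line is the lowest thresholded value (pooled) or the lowest of the 798 highest values (replicates); lin-35, lin-9, lin-53 and lin-54 lie right of the line in all 3 lists, and lin-52 lies on it, just above, in replicate 1.

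Among the MuvB core genes, lin-54 (WBGene00003037) had the highest signal value of the 8. It encodes the subunit that contacts CHR elements, and lies at IV:13241044-13243401 on the plus strand. Its summit at position 13240694, in a region from 13240557 to 13240847, lay −350 bp from the 5′ end. The pooled signal value was 311, at rank 50. In replicate 1 the summit had a signal value of 139 at rank 58, and in replicate 2 it had 173 at rank 43. Both replicate summits lay within 8 bp of the pooled one, and lin-54 held the best rank of the 8 genes in each list. Its pooled region was 291 bp wide, whereas the other 19 pooled regions of the DRM genes were 436 bp wide. Replicate 2 listed another pair of summits inside the gene, in an intron at 371 bp with rank 18708 and in a UTR at 2298 bp with rank 17613. The 300 bases around the pooled summit are shown because they hold a match to the longer E2F element beside CHR-like matches. They are chrIV:13240544-13240843 of the RefSeq copy of WBcel235, 5′ to 3′ in the direction of lin-54, with the summit at base 151. Capitals mark matches to GCGCGAAA, TTTGAA (here read on the other strand, as TTCAAA) and TTTAAA.
lin-54: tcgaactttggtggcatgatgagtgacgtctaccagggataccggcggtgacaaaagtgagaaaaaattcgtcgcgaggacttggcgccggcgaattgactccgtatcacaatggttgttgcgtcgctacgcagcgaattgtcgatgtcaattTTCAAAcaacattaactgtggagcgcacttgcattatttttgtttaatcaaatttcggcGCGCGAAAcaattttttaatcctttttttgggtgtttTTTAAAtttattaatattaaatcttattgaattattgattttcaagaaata
The GCGCGAAA match lay at bases 213 to 220, centred 66 bp from the summit towards the gene, and the TTTGAA match was centred 6 bp from the summit.

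The lin-54 summit was nearer to its divergent neighbour than to lin-54. The 5′ end of rpl-12 (WBGene00004424, IV:13239587-13240651 on the minus strand), a gene of the large ribosomal subunit, lay 43 bp from it. The 5′ ends of the pair were 393 bp apart. When each summit counted only for the protein-coding gene with the nearest 5′ end, the lin-54 summit went to rpl-12 and 3 DRM genes were bound. A single summit between divergent genes cannot be assigned to either promoter from its position alone.

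The gene lin-9 (WBGene00002998), whose product is a MuvB core protein conserved in mammals, lies at III:8900237-8904131 on the minus strand. Its thresholded summit at position 8904315, in a region from 8904097 to 8904532, lay −184 bp from the 5′ end. The pooled signal value was 159 at rank 169. Replicate 1 gave 91.6 at rank 122, and replicate 2 gave 69.5 at rank 271. The replicate summits lay within 16 bp of the pooled summit. No other 5′ end lay within 1000 bp of it, and the nearest divergent gene, unc-32, started 1484 bp from the lin-9 5′ end. Thus lin-9 was the single bound DRM gene whose summit was shared with no neighbour. A weaker summit in an intron, at 2630 bp with a pooled signal value of 29.9 and rank 6656, had a match in both, ranked 8822 by replicate 1 and 13717 by replicate 2. A summit at −385 bp, with 25.5 at rank 9496, was matched in replicate 1, at rank 2611, and not in replicate 2. The bases around the promoter summit are shown for the same longer E2F element, which stands here in a run of GC repeats. They are chrIII:8904166-8904465 of WBcel235, given on the minus strand in the direction of lin-9, with the summit at base 151. Capitals mark GCGCGAAA on the other strand (as TTTCGCGC) and TTTGAA on either strand.
lin-9: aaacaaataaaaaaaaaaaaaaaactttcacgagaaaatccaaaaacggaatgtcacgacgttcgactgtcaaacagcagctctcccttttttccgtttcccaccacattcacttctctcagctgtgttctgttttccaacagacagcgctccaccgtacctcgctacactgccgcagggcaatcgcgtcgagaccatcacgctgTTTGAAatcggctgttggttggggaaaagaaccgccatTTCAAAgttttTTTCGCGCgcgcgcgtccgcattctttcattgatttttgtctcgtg
The GCGCGAAA match at bases 255 to 262 was centred 108 bp from the summit, and the pair of TTTGAA matches was centred 58 and 96 bp from it, all towards the gene.

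The genes of the other small MuvB proteins, lin-52 and lin-37, lie close behind a gene on the same strand and had no thresholded summit. The gene lin-52 (WBGene00003035, III:9824083-9824750, minus strand) is 668 bp long, and ZK632.9 ends 126 bp upstream of it. Its highest pooled summit, at position 9824644, lay in a coding exon 106 bp downstream of the 5′ end, with a signal value of 50.1 at rank 2121. In replicate 1 the matching summit had 42.4 at rank 788, which is among that list's 798 highest. In replicate 2 no summit lay within 100 bp, and the highest in the gene window lay 301 bp from the 5′ end with 22.1 at rank 3975. Its region, from 9824224 to 9824673, held the pooled summit position and overlapped the replicate 1 region, from 9824451 to 9824880. The replicates thus differed at lin-52 in summit position and rank, with overlapping regions. A call from replicate 1 alone would have added lin-52. Summits at −836 bp and −546 bp, with pooled ranks 9474 and 20177, were matched in replicate 2 and not in replicate 1. The 300 bases around the lin-52 summit are shown as an example without an E2F match, at chrIII:9824495-9824794 on the minus strand, with matches to the CHR elements in capitals.
lin-52: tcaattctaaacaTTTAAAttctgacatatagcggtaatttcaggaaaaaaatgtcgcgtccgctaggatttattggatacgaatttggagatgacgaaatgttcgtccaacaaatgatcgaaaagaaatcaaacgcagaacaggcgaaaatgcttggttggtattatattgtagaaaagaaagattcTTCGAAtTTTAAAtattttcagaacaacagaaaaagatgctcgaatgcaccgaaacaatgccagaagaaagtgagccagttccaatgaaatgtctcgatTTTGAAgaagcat
These bases run from just upstream of the 5′ end into the gene.

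The gene lin-37 (WBGene00003022, III:7070890-7072552, minus strand) begins 60 bp after the end of ZK418.5. Its highest pooled summit lay in a coding exon at position 7072313, 239 bp downstream of the 5′ end, with 33.7 at rank 5045. It had 21.3 at rank 4208 in replicate 1 and 15.6 at rank 9445 in replicate 2, where the summit lay 318 bp from the 5′ end. Both replicates listed the summit, well outside the 798 highest of each. A second pooled summit 17 bp downstream of the 5′ end, with 19.3 at rank 17243, was matched in neither replicate.

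The gene lin-53 (WBGene00003036, I:9618196-9619760, minus strand) encodes a WD40 protein of the RbAp48 family, which is also found in other chromatin complexes. It had 1 summit in each of the pooled, thresholded and replicate lists. The pooled summit at position 9619985, in a region from 9619767 to 9620202, lay −225 bp from the 5′ end, with a signal value of 159 at rank 167. In replicate 1 the value was 90.6 at rank 130, and in replicate 2 it was 63.3 at rank 331. The replicate 1 summit lay 10 bp from the pooled one, in the direction of lin-53, and the replicate 2 summit lay at the same base. In every list lin-53 and lin-9 stood close together. The divergent neighbour nra-2 (WBGene00011488, I:9620227-9622377, plus strand) starts 242 bp from the summit, and the 5′ ends are 467 bp apart, so the summit lay near the middle of the interval. The lin-53 paralog rba-1, which lies downstream on the same strand, had no pooled summit in its window.

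The gene lin-35 (WBGene00003020, I:5807709-5815637, plus strand) encodes the pocket protein, the worm counterpart of Rb, p107 and p130. Its thresholded summit at position 5807527, in a region from 5807309 to 5807744, lay −182 bp from the 5′ end with a signal value of 137 at rank 241. Replicate 1 gave 57.5 at rank 388, and replicate 2 gave 81.0 at rank 185. The replicate summits lay at −202 bp and −210 bp. It ranked last of the bound DRM genes in replicate 1 and behind lin-54 alone in replicate 2, so the order of lin-9, lin-53 and lin-35 did not hold between the replicates. The divergent gene vps-51 (WBGene00015176, I:5803956-5807291, minus strand), whose product belongs to a vesicle tethering complex, starts 236 bp from the summit, and the 5′ ends are 418 bp apart. Along the gene body lin-35 had 3 further pooled summits, with signal values of 24.3, 19.8 and 16.5 at ranks 10614, 16413 and 22740. The summit at rank 10614 lay in an intron of lin-35 and also in a coding exon of C32F10.4. Each of the 3 pooled summits was matched in 1 replicate. Replicate 1 also listed intron summits at 2348 bp and 6733 bp, at ranks 18130 and 23543, with no pooled summit within 100 bp. Replicate 2 listed another such summit at 3526 bp, at rank 20184.

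**Figure D2:**
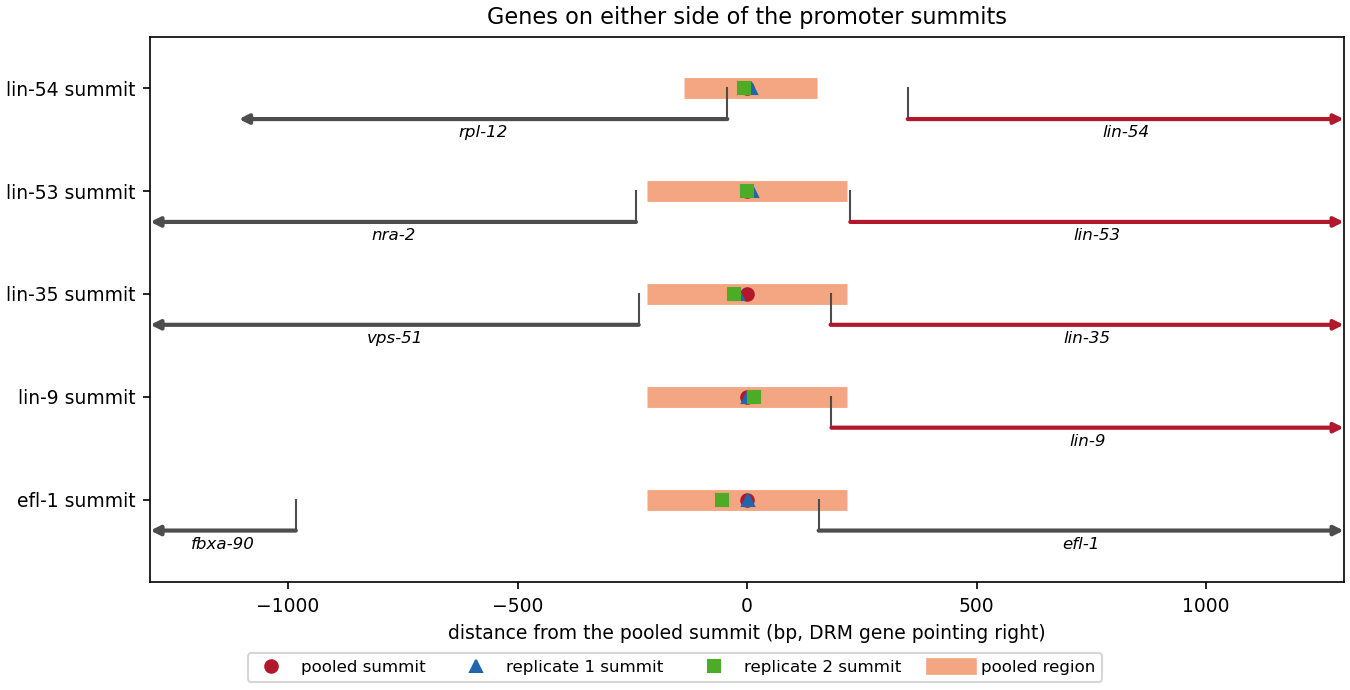
The highest pooled summits of the 4 bound DRM genes and of efl-1, each set at 0 with the DRM gene pointing right; the horizontal axis is the distance in bp. Orange bars are the pooled regions, red circles, blue triangles and green squares are the pooled, replicate 1 and replicate 2 summits, and arrows are genes cut off at the plot's edge, red for bound DRM genes; lin-54, lin-53 and lin-35 share their summit with rpl-12, nra-2 and vps-51, while lin-9 has no neighbour in view.

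Of the 4 bound DRM genes, 3 shared their summit with the 5′ end of another protein-coding gene within 500 bp, against 39.4% of all 411 bound genes. In distance from the 5′ end, lin-35 (−182 bp), lin-9 (−184 bp) and lin-53 (−225 bp) lay between the quartiles of the bound genes, which were −293.5 and −78.5 bp around a median of −179 bp. The lin-54 summit, at −350 bp, lay farther upstream than these quartiles. By signal value, lin-54 was placed 18, lin-53 85, lin-9 87 and lin-35 122 among the 411, whose median was 113. The first places of the 411 were held by genes of the mitochondrial genome, with signal values of 1800 to 6155.

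Both DNA-binding partners of the pocket protein, dpl-1 and efl-1, lacked a thresholded summit, but they differed in level. The gene dpl-1 (WBGene00001061, II:9169910-9172565, plus strand), which encodes the DP subunit, has its 5′ end inside T23G7.2, a gene on the other strand. Its highest pooled summit, at position 9170850 in a coding exon 940 bp downstream of the 5′ end, had a signal value of 21.0 at rank 14641. In replicate 1 this summit had 10.8 at rank 20534, and in replicate 2 it had 11.6 at rank 17797. The pooled value was below the median of all pooled regions, and dpl-1 was the lowest of the 8 genes. The best replicate 2 summit of dpl-1 lay elsewhere, at −791 bp in an intron of T23G7.2, with 18.6 at rank 6158, and was matched by a pooled summit at rank 18555 and by none in replicate 1. A pooled summit at −269 bp, with 15.8 at rank 24299, was matched in neither replicate. It was the only pooled summit of dpl-1 within 500 bp of the 5′ end. Replicate 1 listed another summit 5 bp downstream of that end, at rank 21946. The remaining pooled summit, at 2289 bp with rank 19239, was matched in replicate 2 alone, at rank 9727. Replicate 2 also listed summits at 1141 bp and −581 bp, at ranks 17163 and 18443.

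The gene efl-1 (WBGene00001161, V:16958590-16965675, minus strand) encodes the E2F subunit. Its highest pooled summit, at position 16965831 in a region from 16965613 to 16966048, was intergenic and lay −156 bp from the 5′ end, as the promoter summits of the bound genes did. Its signal value was 63.5 at rank 1273. In replicate 1 the value was 37.3 at rank 1082, and in replicate 2 it was 31.0 at rank 1782, with the summit 55 bp from the pooled one. Both replicates placed it below their own 798 highest regions, of which the lowest had 42.1 in replicate 1 and 44.1 in replicate 2. The deposited −log10 q-value of the efl-1 region was 2.44, the ceiling of the pooled list, which 1810 regions reached, so that value does not separate efl-1 from the thresholded regions. The nearest other 5′ end, of the F-box gene fbxa-90, lay 983 bp from the summit. A second pooled summit, in an intron at 5101 bp with rank 24379, was matched in neither replicate. Replicate 1 listed another intron summit at 2748 bp, at rank 21980. Replicate 2 listed one in a coding exon at 412 bp, at rank 8667. The bases around the promoter summit are shown because they hold the other E2F core. They are chrV:16965682-16965981 of WBcel235 on the minus strand, with the summit at base 151. Capitals mark GCGGGA on the other strand (as TCCCGC) and TTTGAA on the other strand (as TTCAAA).
efl-1: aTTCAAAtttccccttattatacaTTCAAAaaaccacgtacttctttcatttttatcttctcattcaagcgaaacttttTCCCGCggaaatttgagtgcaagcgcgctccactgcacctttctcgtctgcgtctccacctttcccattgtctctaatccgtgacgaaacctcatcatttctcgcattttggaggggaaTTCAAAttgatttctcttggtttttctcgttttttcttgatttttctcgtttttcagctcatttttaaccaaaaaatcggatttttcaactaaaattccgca
The GCGGGA match at bases 80 to 85 was centred −68 bp from the summit, on the side away from the gene, and TTTGAA occurred 3 times.

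**Figure D3:**
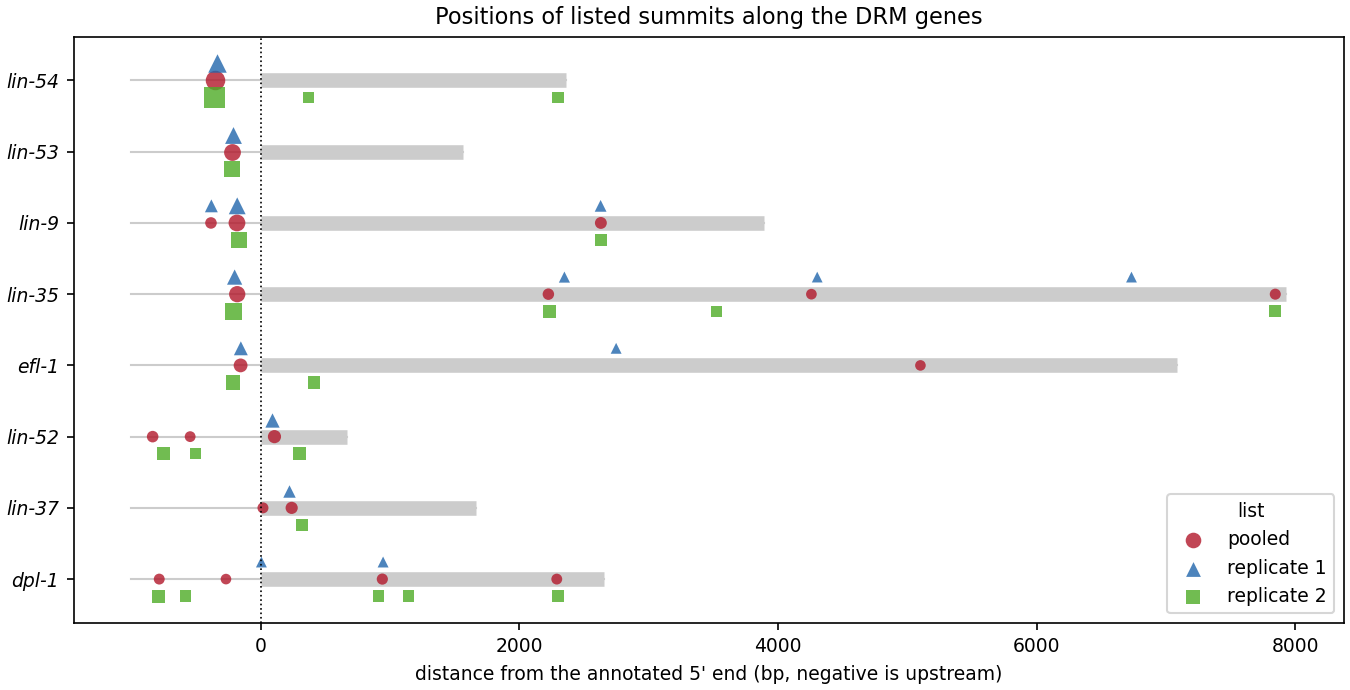
Positions of all listed summits of the 8 DRM genes by distance from the annotated 5′ end in bp, with genes as grey bars and the window upstream of them as a thin line. Red circles, blue triangles and green squares are the pooled, replicate 1 and replicate 2 lists, and symbols grow with the signal value within their list; the highest pooled summits of lin-35, efl-1, lin-9, lin-53 and lin-54 lie upstream of the 5′ end, and those of lin-52 and lin-37 just inside the gene.

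The 8 genes held 20 pooled summits in 35.8 kb of gene windows, or 0.558 per kb, with a median of 2.5 per gene. Summed over the windows of all protein-coding genes there were 24074, or 0.285 per kb, with a median of 1 per gene. Windows can overlap, so a summit was counted once for each gene whose window held it. Both counts include background regions. The replicate 1 list held 15 summits in the same windows and the replicate 2 list held 21. Of the 20 pooled summits, 8 were matched within 100 bp in both replicates, 9 in exactly 1 and 3 in neither. All 4 thresholded summits were matched in both replicates, as were 94.2% of all 798 thresholded summits. The thresholded list was derived from both replicates, so such matching was partly built in. All 4 were also among the 798 highest of each replicate, against 58.8% of the thresholded summits. The 4 had pooled ranks of 50 to 241, well above the lowest thresholded rank, and the share among summits of like rank was not counted. The 16 pooled summits that were not thresholded had signal values of 15.8 to 63.5 and ranks 1273 to 24379. Of these, 10 lay downstream of the 5′ end, with values of 15.8 to 50.1.

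Called from each replicate alone, by its 798 highest signal values, 5 DRM genes were bound in replicate 1 and 4 in replicate 2. Over all protein-coding genes these shares were 1.97% and 1.88%. The gene added in replicate 1 was lin-52. For 7 of the 8 genes the highest pooled summit was matched in both replicates, lin-52 being the exception. In replicate 1 the order of the bound genes was lin-54, lin-9, lin-53 and lin-35, at ranks 58, 122, 130 and 388. In replicate 2 it was lin-54, lin-35, lin-9 and lin-53, at ranks 43, 185, 271 and 331. The first place of lin-54 held in both replicates, and with 2 replicates no further order could be set against a spread.

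**Figure D4:**
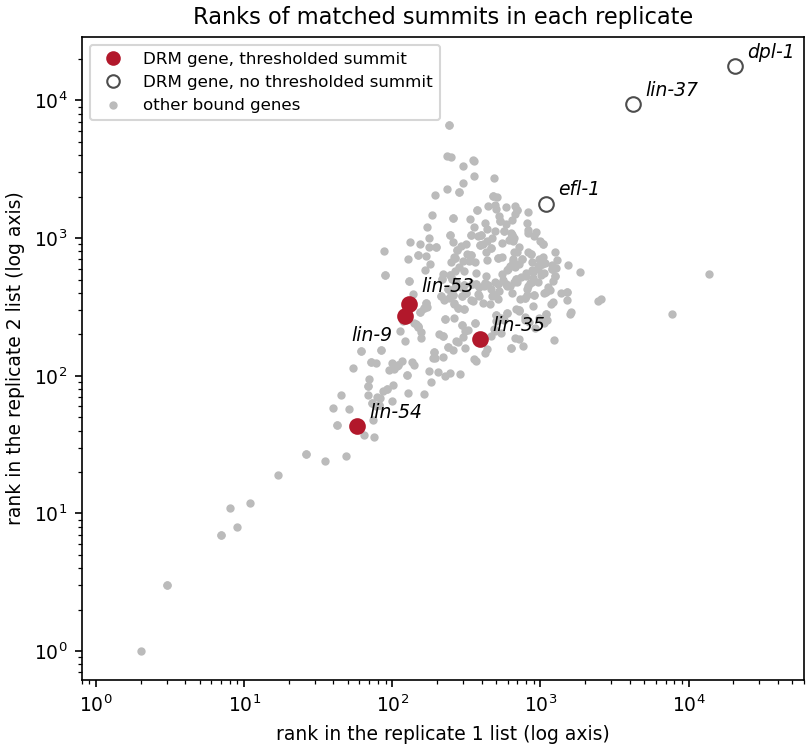
Rank of each matched summit in the replicate 1 list (horizontal, log axis) and the replicate 2 list (vertical, log axis), with 1 as the highest signal value. Red dots are bound DRM genes, and open circles are DRM genes with no thresholded summit, placed by their highest pooled summit. Grey dots are the other bound genes with both ranks. The gene lin-52 is not drawn because replicate 2 had no summit within 100 bp, although its region there overlapped. The genes efl-1, lin-37 and dpl-1 rank below the bound DRM genes in both lists.

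The neighbours rpl-12, nra-2 and vps-51 share a summit with lin-54, lin-53 and lin-35 and therefore have the same replicate ranks. Leaving out genes that share its summit, the gene with the closest pair of replicate ranks to each bound DRM gene, among 402 bound genes with both ranks, was found by the smallest sum of the absolute log2 rank ratios over the 2 lists. For lin-54 it was rpl-35, which encodes a ribosomal protein, at ranks 64 and 37 in replicates 1 and 2 with a sum of 0.36. For lin-9 it was Y39B6A.43, at ranks 118 and 249 with a sum of 0.17. For lin-53 it was T07F10.3, at ranks 138 and 390 with a sum of 0.32. For lin-35 it was arrd-19, an arrestin domain gene, at ranks 463 and 193 with a sum of 0.32. Such likeness over 2 lists describes signal order and nothing else.

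The genes lin-37, lin-52 and dpl-1 had in common a 5′ end either within 500 bp of the end of an upstream gene on the same strand or inside another gene. None of these 3 was bound. No such neighbour was found for lin-35, lin-9, lin-53 and lin-54, which were bound, or for efl-1, which was not. Over the genome, 1.76% of the 4940 protein-coding genes with such a 5′ end were bound, against 2.15% of the 15045 others. This grouping was chosen after the values were seen.

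Motifs were searched on both strands in the 300 bases around the highest pooled summit of each DRM gene. The E2F cores GCGCGA or GCGGGA occurred in 5 of the 8, namely lin-35, efl-1, lin-9, lin-53 and lin-54. These included all 4 bound genes, and the windows of dpl-1, lin-37 and lin-52 held neither. In these 3 genes the window was centred in a coding exon, 940, 239 and 106 bp downstream of the 5′ end. Their upstream sequence was searched at most in a small part, and whether it holds a core was not tested. One or both cores occurred in 24.2% of the 330 thresholded nuclear summits that mark bound genes (promoter summits), in 22.2% of all 778 thresholded nuclear summits and in 10.4% of 19973 nuclear promoters of the same length. Promoter sequences were placed by the 5′ end, mostly upstream of it, and were not centred on a summit. Their shares and GC content thus come from differently placed sequence. The cores were combined after their matches were seen. GCGCGA occurred in lin-54, lin-9 and lin-35, against 12.4% of the promoter summits and 4.39% of promoters. GCGGGA occurred in lin-53 and efl-1, against 13.9% of the promoter summits and 6.49% of promoters. In lin-54 and lin-9 GCGCGA was part of the longer GCGCGAAA, which occurred in 4.24% of the promoter summits and 1.14% of promoters. The other longer element, TTCCCGCC, and the repeat GAGAGAGA occurred in none of the 8, against 1.52% and 6.67% of the promoter summits.

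The CHR elements occurred in both bound and unbound DRM genes. TTTGAA occurred in 6 of the 8 genes, 3 of them bound, against 53.3% of the promoter summits and 62.5% of promoters. TTTAAA occurred in 5, 3 of them bound, against 35.5% and 41.1%. TTCGAA occurred in dpl-1 and lin-52, neither of them bound and both searched around a coding exon, against 17.6% and 18.2%. The GC content of the 300 bases was 38.3% in lin-54, 39.3% in lin-53, 46.3% in lin-9, 35.3% in lin-35 and 37.7% in efl-1. It was 35.0% in lin-52, 39.7% in lin-37 and 32.0% in dpl-1. The mean was 40.8% over the promoter summits and 34.8% over promoters, and GC content bears on how often GC-rich letters occur. A match is not a binding site, and its part in the signal was not tested.

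Other genes linked to the DRM complex or to the synMuv classes, not all of which act with the complex, were counted in 4 lists of 39 genes. None of the 39 was bound, beside the 2.06% of all protein-coding genes, and 3 had a thresholded summit elsewhere in the gene window, beside 3.45%. In the pooled list 14 had a summit within 500 bp of the 5′ end and 25 had one in the window, beside 30.2% and 54.1% of all protein-coding genes. Of 12 further synMuv genes, mostly of class B, 0 had a thresholded summit. The highest pooled summit among them was that of hda-1, a class I histone deacetylase gene, at −984 bp with a signal value of 47.5 and rank 2379. Of 3 synMuv class A genes 0 had a thresholded summit, and the highest pooled one was that of lin-56 at −28 bp, with 45.2 at rank 2593. That summit ranked 22058 in replicate 1 and 1362 in replicate 2.

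A list of 13 genes held cyclin, CDK and E2F genes and other genes grouped with them. Of these 13, cye-1 had a thresholded summit and 0 were bound. The cye-1 summit lay in an intron of this cyclin E gene, 1109 bp downstream of the 5′ end, with a signal value of 106 at rank 442, and at ranks 673 in replicate 1 and 321 in replicate 2. Of 11 synMuv suppressor and germline chromatin genes, cbp-1 and zfp-1 had a thresholded summit and 0 were bound. The summit of cbp-1, which encodes a CBP/p300 acetyltransferase, lay at −855 bp with 240 at rank 81, and at ranks 76 in replicate 1 and 86 in replicate 2. The summit of zfp-1, a homolog of AF10, lay in an intron 10593 bp from the 5′ end with 153 at rank 184, and at ranks 198 in replicate 1 and 199 in replicate 2.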

How the data were processed

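The samples were 2 biological replicates of F22D6.2-GFP ChIP-seq in 1 group. Per the labels and file descriptions, the authors deposited a list of peaks and background regions for each replicate and for both together, made against a control, and a thresholded list. The aligner, peak caller, their versions and the threshold of the irreproducible discovery rate step are not given in the sources used here. The deposited signal value is never negative and ranked the regions. The −log10 q-value deposited beside it is capped and was not used for ranking. The 4 lists on ce11 were used, and those on ce10 were not, since coordinates were not converted. Summits were placed with Python 3.11.15 and pandas 2.3.3 on gene models of Ensembl release 115 for WBcel235, the assembly of ce11, and sequence came from RefSeq. Distances were 1000 bp upstream for gene windows, 500 bp for bound genes and 100 bp for matched summits. The counting was tested on simulated summits. The members, lists and motifs were chosen with earlier results of these data known, so no test was made and p-values are not given. Named genes were the members, neighbours within 1000 bp of their summits, the closest gene by replicate ranks without those sharing the summit, and from each list the genes with a thresholded summit or, failing any, the highest pooled summit. The genes fbxa-90, unc-32, ZK632.9, ZK418.5, T23G7.2, C32F10.4 and rba-1 were named after their values were seen. Depth was unknown, and alternatives covered list length, distances, single replicates and gene assignment.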

Additional observations from a re-analysis of the deposited data

How the results depend on the processing

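All 21 alternative counts stayed within 1.5 times the main count, a wide margin for counts this small. Some alternatives could not lower a count, such as the 2000 bp upstream limit and matching summits within 250 bp. The highest pooled signal value of each of the 8 genes was the same with the upstream limit at 500 or 2000 bp. No other alternatives were run for that value. The number of bound DRM genes was 4, and 3 to 5 under the alternatives. It was 3 with a distance of 250 bp, and 3 when each summit counted for the nearest gene only, both without lin-54. It was 5 without replicate 2, which added lin-52, and 4 without replicate 1. The 399 highest summits and the 1197 highest summits each gave 4, the same genes as the main count. No member ranked between lin-35 at 241 and efl-1 at 1273, so both cuts had to give these genes. Members with a pooled summit, background regions included, numbered 8 of 8 under every window and replicate alternative. No paired analysis was possible because both samples belong to 1 group and the results come from no test. Unknown depth and 2 replicates limit the values, and lists of unequal length compare by rank only within themselves.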
